A study of Mus musculus with 47 samples.

Results

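Collagen genes were described on single fibres of a mouse hindlimb muscle of mainly fast fibres, the extensor digitorum longus (EDL). The members were all genes of the count tables named Col, a number, the letter a and a number, which gave 44 of 24421 genes, and 41 of the 44 had a count in some fibre. The data comprised 20 fibres of C2KO mice and 27 fibres of wild-type (WT) mice, all of the FVB/N strain and 2 to 3 months old. C2KO mice lack Mybpc2, which encodes the fast isoform of myosin binding protein C in skeletal muscle, with a block of its exons replaced by a Neo cassette flanked by LoxP sites. Each library held the RNA of 1 fibre that was released from the muscle with collagenase, rinsed and lysed. The labels name 2 C2KO and 3 WT mice and tie no fibre to a mouse, so fibres were summed into 5 pools for the genotype test, C2KO pools 740 and 2445 by the prefix of the fibre name (10 fibres each) and WT pools 1, 2 and 3 by sequencing run (10, 10 and 7 fibres). Run 0092 held WT pool 3 and 1 C2KO fibre of pool 740, and no other run held both genotypes. In the pool test, genotype and run therefore cannot be told apart. The question was which collagens are found on most fibres and which on single fibres, with and without Mybpc2.

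Collagens are secreted proteins whose chains wind around each other into a stiff helix, and each gene encodes 1 chain of a type named by a Roman numeral. In muscle, the basement membrane that wraps each fibre holds a network of type IV collagen with type VI beside it, whereas the fibrils of types I and III between fibres are made mainly by fibroblasts. Some collagens are known from muscle fibres themselves, such as type XXII at the junction of muscle and tendon and type XIX in differentiating muscle cells. A muscle fibre freed with an enzyme can keep remnants of its matrix and of the cells on its surface, and a library of such a fibre does not separate fewer cells of a kind from less RNA per cell.

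C2KO libraries held 7648762 to 10517887 gene counts and WT libraries 7769593 to 14606631, so that 1 CPM (counts scaled to the library's gene count) was worth 7.65 to 14.6 counts. Mybpc2 lay at 2.61 to 47.6 CPM in C2KO fibres (median 26.1) and at 6563 to 11556 CPM in WT fibres (median 9479), with no overlap. All collagens together took 43226 counts in C2KO (0.0224% of all gene counts) and 24855 counts in WT (0.00787%). Of the C2KO counts, 37133 came from pool 740 and 6093 from pool 2445, and fibre 740-5 alone held 22763, so that without fibres 740-5, 740-2 and 740-8 C2KO held 11396 (0.00694% of all gene counts). The genes listed for the fast type IIb fibre (Myh4, Acta1, Ckm, Mylpf, Tnnt3 and Atp2a1) summed to 225793 to 310566 CPM in C2KO fibres and 242885 to 292354 CPM in WT fibres. Whether this list tells type IIb from other fibre types was not tested. All 10 fibres of C2KO pool 740 had Y-linked counts without Xist and all 10 of pool 2445 had Xist without Y-linked counts, while each WT pool held fibres of either kind (15 and 11 WT fibres). The study describes the mice of its single-fibre data as male, which the Xist counts of pool 2445 and of WT fibres go against. In C2KO, pool and the kind of sex-linked counts cannot be told apart.

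A few libraries stood apart by their collagen level. The collagens summed to 2290 CPM in C2KO fibre 740-5, 662 CPM in 740-2 and 301 CPM in 740-8, against a median of 61.0 CPM over the 20 C2KO fibres and 68.2 CPM over the 27 WT fibres. The highest WT fibre, 35_17692, had 188 CPM, and the lowest fibre of each genotype had 28.7 CPM in C2KO and 46.1 CPM in WT. Without those 3 fibres the C2KO median was 59.3 CPM. Fold changes that rest on these fibres are given with and without them where the genotypes are compared. The 3 fibres were picked by this level and are all C2KO, while the highest WT fibres were kept. Values without them therefore lean towards lower collagens in C2KO and are no even check of the genotypes.

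The promoters of 5 collagens are shown because their genes carry the main contrast, Col4a2, Col24a1 and Col19a1 as collagens of most fibres and Col3a1 and Col1a2 as collagens of few. The windows run from 250 bases before to 50 bases after a start given by RefSeq on build GRCm38.p6, and 35 of the 44 collagens had one. That start can differ from the gene start in the count files, which is 4505697 for Col1a2 and 11312829 for Col4a2. Capitals mark, on either strand, the GC box GGGCGG, the CCAAT box CCAAT, the TATA box TATAAA and the E-box CANNTG, which muscle transcription factors of the MyoD family can bind.
Col4a2 (chr8:11312555-11312854, plus strand): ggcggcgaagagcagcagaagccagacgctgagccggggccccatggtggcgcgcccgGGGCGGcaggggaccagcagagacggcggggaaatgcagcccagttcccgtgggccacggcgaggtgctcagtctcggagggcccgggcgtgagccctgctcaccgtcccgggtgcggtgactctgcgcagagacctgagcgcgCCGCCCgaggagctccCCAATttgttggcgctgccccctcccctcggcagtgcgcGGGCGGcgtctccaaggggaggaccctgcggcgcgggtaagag
Col24a1 (chr3:145292222-145292521, plus strand): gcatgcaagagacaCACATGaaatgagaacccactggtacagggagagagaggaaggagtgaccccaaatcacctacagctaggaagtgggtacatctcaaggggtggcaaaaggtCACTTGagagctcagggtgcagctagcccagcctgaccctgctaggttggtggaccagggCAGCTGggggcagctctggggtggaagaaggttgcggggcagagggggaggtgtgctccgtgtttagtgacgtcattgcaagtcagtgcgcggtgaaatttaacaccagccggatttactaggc
Col19a1 (chr1:24587388-24587687, minus strand): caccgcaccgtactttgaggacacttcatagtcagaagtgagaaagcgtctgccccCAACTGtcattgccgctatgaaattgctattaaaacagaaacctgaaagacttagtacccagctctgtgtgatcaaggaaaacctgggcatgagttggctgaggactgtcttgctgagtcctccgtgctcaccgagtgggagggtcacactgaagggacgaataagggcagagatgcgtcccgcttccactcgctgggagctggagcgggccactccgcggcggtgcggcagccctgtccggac
Col3a1 (chr1:45311288-45311587, plus strand): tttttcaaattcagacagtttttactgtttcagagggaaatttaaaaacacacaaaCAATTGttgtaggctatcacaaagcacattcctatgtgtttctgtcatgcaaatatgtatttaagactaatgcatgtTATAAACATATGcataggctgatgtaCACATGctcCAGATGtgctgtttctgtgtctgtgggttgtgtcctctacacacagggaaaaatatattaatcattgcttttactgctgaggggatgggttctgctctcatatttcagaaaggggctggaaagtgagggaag
Col1a2 (chr6:4505368-4505667, plus strand): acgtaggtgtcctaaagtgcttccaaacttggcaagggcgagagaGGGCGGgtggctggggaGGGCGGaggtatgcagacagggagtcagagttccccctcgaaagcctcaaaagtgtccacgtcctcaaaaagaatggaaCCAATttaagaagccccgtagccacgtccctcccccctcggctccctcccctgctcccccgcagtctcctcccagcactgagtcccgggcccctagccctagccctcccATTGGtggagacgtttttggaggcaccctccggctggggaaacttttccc
Col4a1 starts close by on the other strand, and its own window shares 78 bases with that of Col4a2. An E-box stood in the windows of 4 of 9 collagens of most fibres (Col5a3, Col11a2, Col19a1 and Col24a1) and of 3 of 7 collagens of few fibres, against 72.3% of all 32851 windows. A GC box stood in 6 of 9 and 4 of 7, against 35.7% of all windows, and a CCAAT box in 4 of 9 and 2 of 7, against 37.4%. Of the printed windows, that of Col3a1 held a TATA box, found in 13.6% of all windows. For a collagen with more than 1 window the first was counted, and motifs that overlap are capitalised together. A match is a run of letters and not a measured site.

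In each genotype 10 collagens reached 1 CPM in more than 50% of fibres, and they were the same 10 genes. These were Col22a1, Col4a2, Col19a1, Col9a1, Col4a1, Col7a1, Col5a1, Col24a1, Col11a2 and Col5a3, called fibre-wide in the following. By family they comprised 4 of 11 fibrillar collagens, 3 of 9 fibril-associated collagens, 2 of 6 chains of type IV and 1 of 5 anchoring and network collagens. No chain of the beaded filament type VI, no transmembrane collagen and neither multiplexin (types XV and XVIII) was among them. A further 13 collagens in C2KO and 13 in WT reached 1 CPM in some fibres (3 or more, at most 50%), 7 in C2KO and 6 in WT in only 1 or 2 fibres, 9 in C2KO and 11 in WT had counts but stayed under 1 CPM, and 5 in C2KO and 4 in WT had no count.

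**Figure D1:**
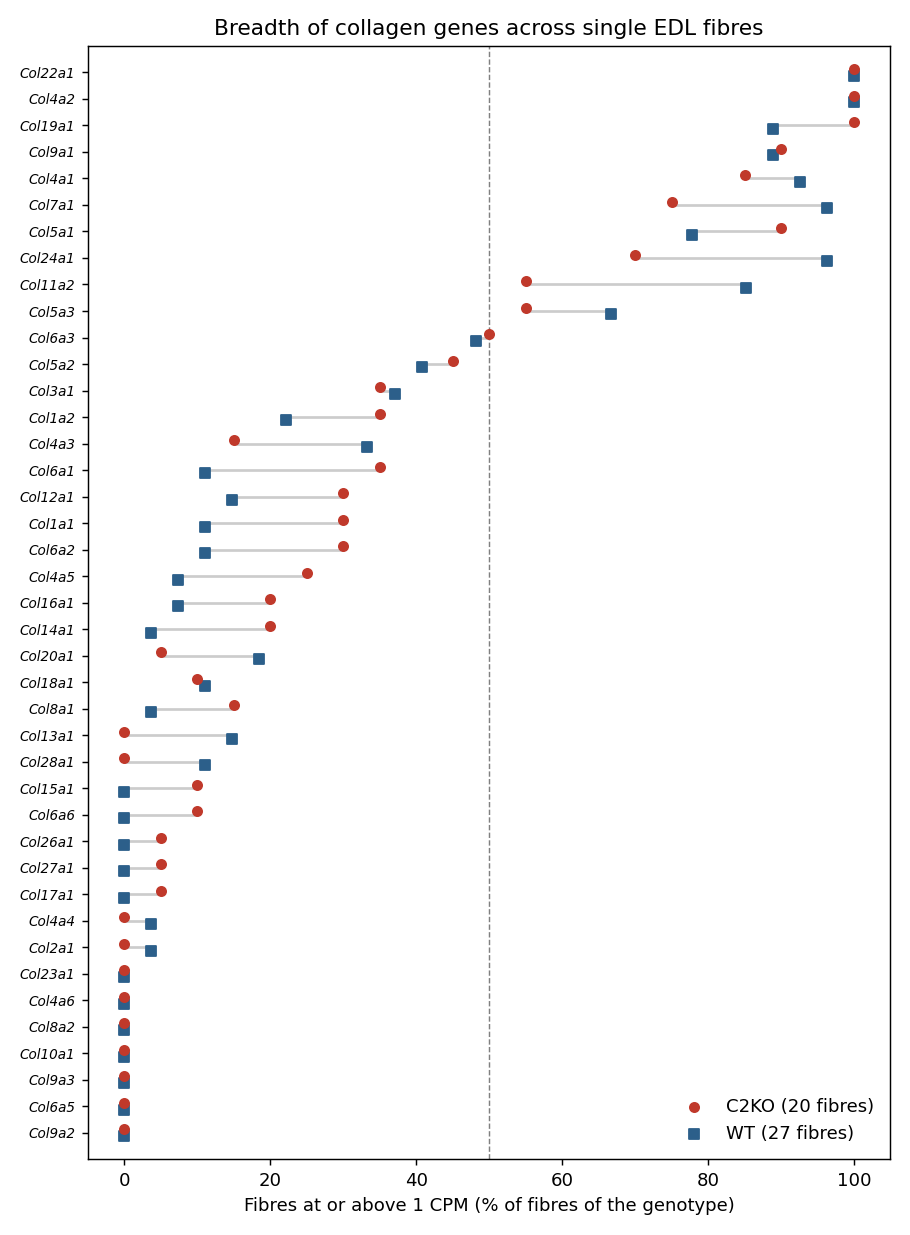
Share of fibres at or above 1 CPM for the 41 collagens with any count; circles are the 20 C2KO fibres, squares the 27 WT fibres and the dashed line marks 50%. Col22a1 and Col4a2 stand at 100% in both genotypes, and Col6a3 lies at the line, at 50.0% in C2KO and 48.1% in WT.

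A few collagens lay near the line between fibre-wide and narrower. Col6a3 was the collagen nearest to the line, with 10 of 20 C2KO fibres and 13 of 27 WT fibres at or above 1 CPM, and Col5a2 followed with 9 and 11. Just inside the line were Col5a3, with 11 of 20 C2KO and 18 of 27 WT fibres, and Col11a2, with 11 of 20 C2KO and 23 of 27 WT fibres. At a level of 0.5 CPM, Col5a2 and Col6a3 passed the line in both genotypes and Col3a1 did in WT. With all fibres thinned to 1 depth, Col6a3 was past the line in both genotypes (11 of 20 C2KO and 15 of 27 WT fibres), and at a minimum of 10 counts it was past it in WT (10 of 20 C2KO and 15 of 27 WT fibres). At 2 CPM, Col5a3 dropped below it in both genotypes, Col11a2 and Col24a1 in C2KO and Col5a1 in WT. Without fibres 740-5, 740-2 and 740-8, Col5a3 and Col11a2 fell below the line in C2KO.

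Col22a1, the chain of type XXII, had the highest median per length of the fibre-wide collagens. It had 13.8 to 34.3 CPM in C2KO fibres (median 23.8) and 14.2 to 58.7 CPM in WT fibres (median 26.4), so no fibre was without it. It also varied least between fibres of the 10, with a coefficient of variation over fibres of 27.9% in C2KO and 37.1% in WT. Per kb of exon its median was 3.88 CPM in C2KO and 4.31 CPM in WT, and its middle quartiles lay above those of the other fibre-wide collagens in both genotypes. Of all collagen counts Col22a1 took 10.6% in C2KO (exact binomial interval 10.3 to 10.9%) and 38.9% in WT (38.3 to 39.5%), and the share in C2KO was 6.47% in pool 740 and 35.5% in pool 2445. Without fibres 740-5, 740-2 and 740-8 the share in C2KO was 32.4%. The interval covers counting error only, and the difference between the C2KO pools goes with the collagens of few fibres described below.

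The pools of Col22a1 overlapped between genotypes. Scaled by TMM, it had 25.1 and 22.6 CPM in C2KO pools 740 and 2445, against 32.2, 32.8 and 21.6 CPM in WT pools 1, 2 and 3. The log2 fold change was -0.28 (SE 0.20), with an adjusted p of 0.66 in edgeR's quasi-likelihood test with Benjamini-Hochberg adjustment over 12863 genes. Across the 20 C2KO fibres Col22a1 had a Spearman rho of -0.06 with the sum of the type IIb list and -0.28 with library depth. Across the 27 WT fibres these values were 0.74 and 0.60. Each pair of values comes from the same library, and the part of depth in it was not tested.

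Type IV collagen, the network of the basement membrane, was present through the pair Col4a2 and Col4a1. Col4a2 had 2.00 to 56.9 CPM in C2KO fibres (median 6.77) and 3.97 to 20.5 CPM in WT fibres (median 7.77). Col4a1 had 0.46 to 106 CPM in C2KO fibres (median 3.48) and 0.71 to 8.08 CPM in WT fibres (median 2.91). Both reached their highest level in C2KO fibre 740-5. In the annotation of the files the genes lie head to head on mm10 chromosome 8, Col4a1 at 11198423 to 11312826 on the minus strand and Col4a2 at 11312829 to 11449287 on the plus strand, with starts 3 bases apart.

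The balance of the pair differed between fibres. Of the counts of Col4a1 and Col4a2 together, Col4a1 took a median of 34.7% over C2KO fibres (5.63 to 65.1%) and 25.7% over WT fibres (9.92 to 59.04%). Col4a1 made up 50% or more in 6 of 20 C2KO fibres and 1 of 27 WT fibres. The exact 95% interval of the share lay above 50% in fibres 740-5 (62.7 to 67.4%) and 740-2 (60.3 to 66.7%), and it lay below 50% in 12 C2KO fibres and 26 WT fibres. Summed over pools, the share was 57.3% in C2KO pool 740 and 39.6% in pool 2445, against 26.1%, 28.03% and 28.4% in WT pools 1, 2 and 3. These shares are a description with no test.

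Endothelial markers were high in some of the fibres with a high Col4a1 share and low in others. The 4 fibres with the highest sum over 12 endothelial markers, 740-2 (120 CPM), 740-5 (95.3 CPM), 740-8 (19.6 CPM) and 2445-1 (8.66 CPM), had Col4a1 shares of 63.6%, 65.1%, 54.1% and 56.5%. The other fibres at 50% or more, 740-1, 2445-13 and WT fibre 50, had endothelial sums of 1.96, 0.68 and 0 CPM, and every WT fibre stayed at or under 5.08 CPM. The part of these cells in the balance was not tested. Of the other type IV chains, Col4a3 reached 1 CPM in 3 of 20 C2KO and 9 of 27 WT fibres and Col4a5 in 5 of 20 C2KO and 2 of 27 WT fibres, while Col4a4 and Col4a6 stayed at or under 1.29 CPM in all fibres.

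**Figure D2:**
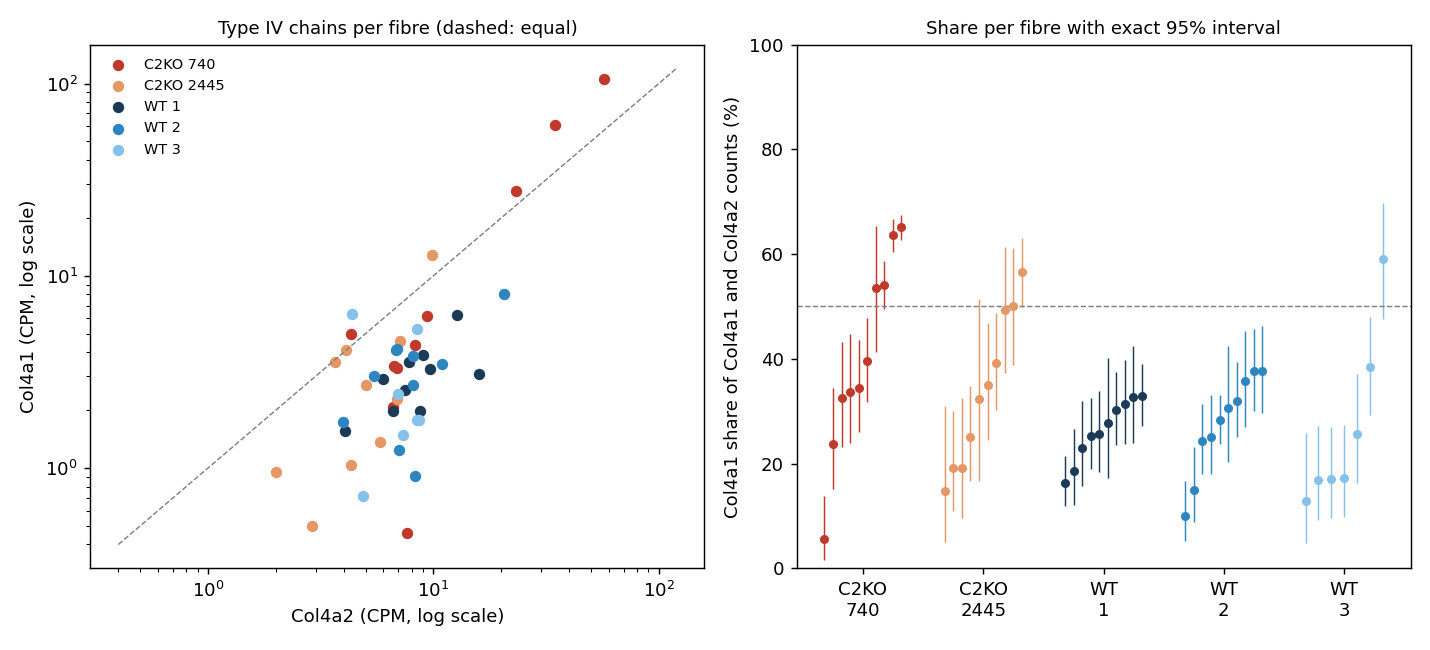
Left, Col4a1 against Col4a2 in each fibre (CPM, log axes; dashed line, equal levels); right, the Col4a1 share of the counts of the pair in each fibre, ordered within pools, with exact 95% binomial intervals. The C2KO fibres at the upper right are 740-5, 740-2 and 740-8, with shares of 65.1%, 63.6% and 54.1%.

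In the genotype test Col4a1 had 22.02 and 3.58 CPM in the C2KO pools, against 3.16, 3.32 and 2.76 CPM in the WT pools. The log2 fold change was 2.05 (SE 0.65, edgeR adjusted p = 0.42), and without the 3 high fibres it was 0.21. Col4a2 had 16.4 and 5.45 CPM in the C2KO pools, against 8.94, 8.52 and 6.94 CPM in the WT pools. Its log2 fold change was 0.42 (SE 0.42, adjusted p = 0.77) and changed sign to -0.37 without those fibres.

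Col19a1, a fibril-associated collagen, was the fibre-wide collagen whose pools separated upwards in C2KO besides Col4a1. It had 1.15 to 10.3 CPM in C2KO fibres (median 4.38) and 0 to 8.53 CPM in WT fibres (median 2.64). The pools had 5.52 and 4.38 CPM in C2KO, against 3.16, 3.15 and 1.59 CPM in WT. The log2 fold change was 0.90 (SE 0.33), the adjusted p was 0.46, and the value was 1.01 without the 3 high fibres. Col19a1 was also the one collagen called higher in a limma/voom fit over the 47 single fibres (0.94, adjusted p = 0.022), which treats fibres of a mouse as independent and called 2.42% of 10156 genes higher.

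The neighbour of Col19a1 on chromosome 1, Col9a1, was fibre-wide as well. The genes converge there, with ends 4945 bases apart, and share no exon. Col9a1, a fibril-associated chain known from cartilage, had 0.57 to 6.68 CPM in C2KO fibres (median 2.67) and 0.82 to 6.08 CPM in WT fibres (median 2.00). Its pools overlapped, with 3.67 and 2.01 CPM in C2KO and 2.65, 2.65 and 1.71 CPM in WT, and the log2 fold change was 0.28 (SE 0.34, adjusted p = 0.82).

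Col24a1 and Col11a2, chains of the fibrillar types XXIV and XI, lay lower in each C2KO pool than in any WT pool, without passing the test. Col24a1 had 0.20 to 5.36 CPM in C2KO fibres (median 2.07) and 0.96 to 9.39 CPM in WT fibres (median 3.73), with 2.95 and 1.59 CPM in the C2KO pools and 4.14, 3.21 and 4.74 CPM in the WT pools. Its log2 fold change was -0.82 (SE 0.33, adjusted p = 0.47). Col11a2 had 0 to 3.02 CPM in C2KO fibres (median 1.30) and 0.25 to 4.72 CPM in WT fibres (median 2.50), with 1.49 and 0.88 CPM in the C2KO pools and 2.39, 2.35 and 2.90 CPM in the WT pools. Its log2 fold change was -1.10 (SE 0.31, adjusted p = 0.41).

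Both values stayed negative without the high fibres. Without fibres 740-5, 740-2 and 740-8, the log2 fold changes were -0.89 for Col24a1 and -1.24 for Col11a2. In the limma/voom fit over fibres they were -0.97 (adjusted p = 0.025) and -1.64 (adjusted p = 0.013), past the threshold, beside 2.24% of genes called lower. That fit held 13 collagens and treats fibres of a mouse as independent, so it is no separate support. With the run as covariate Col24a1 changed sign, as given in the section on processing. Within run 0092, the only run with both genotypes, the single C2KO fibre had 5.36 CPM of Col24a1, inside the range of 2.32 to 8.65 CPM of 7 WT fibres, and no count of Col11a2, against 1.27 to 4.43 CPM. With 1 fibre this is a value and not a test.

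The other fibre-wide collagens were Col7a1, Col5a1 and Col5a3. Col7a1, which forms anchoring fibrils, had 0.39 to 7.85 CPM in C2KO fibres (median 2.53) and 0.37 to 8.75 CPM in WT fibres (median 3.14), and a log2 fold change of -0.31 (SE 0.32, adjusted p = 0.77). The exons of Col7a1 share 36 bases with Mir711 on the same strand. Col5a1, a chain of the type V collagen that sits in type I fibrils, had 0.52 to 69.7 CPM in C2KO fibres (median 2.16) and 0 to 7.48 CPM in WT fibres (median 1.77). Col5a3, another type V chain, had 0 to 55.4 CPM in C2KO fibres (median 1.12) and 0 to 5.46 CPM in WT fibres (median 1.43).

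For the type V chains the pools showed where the spread lay. Col5a1 had 11.2 and 2.18 CPM in the C2KO pools, against 3.09, 2.04 and 1.15 CPM in the WT pools (log2 fold change 1.67, SE 0.69, adjusted p = 0.48; 0.32 without the 3 high fibres). Col5a3 had 8.68 and 1.62 CPM in the C2KO pools, against 2.63, 1.69 and 0.80 CPM in the WT pools (1.58, SE 0.73, adjusted p = 0.52; -0.05 without the 3 high fibres). Fibre 740-5 alone held 52.7% and 54.9% of the summed CPM of Col5a1 and Col5a3 over C2KO fibres.

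**Figure D3:**
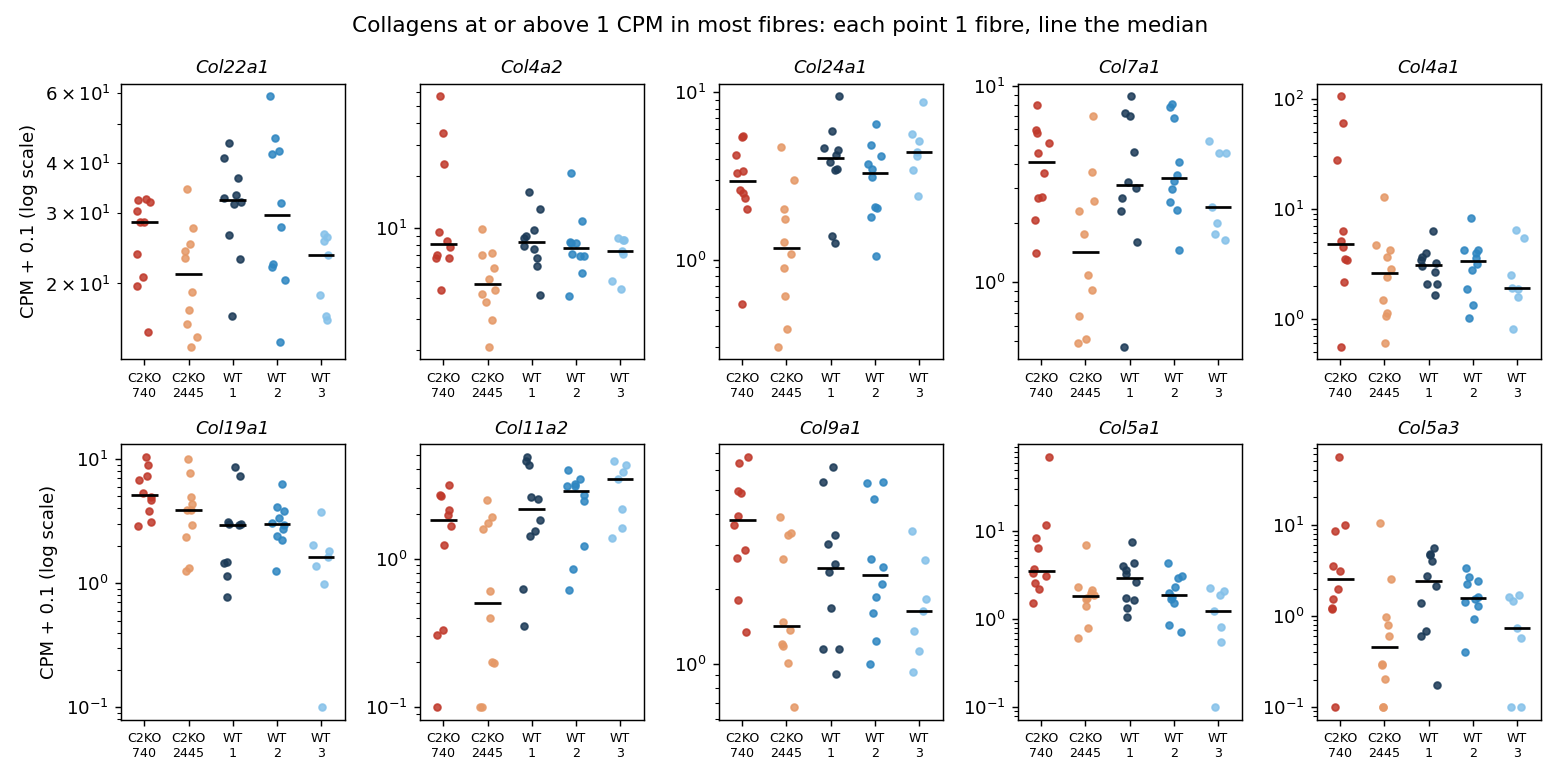
CPM of the 10 fibre-wide collagens in each fibre by pool (log axes, 0.1 added; lines are pool medians), ordered by their WT median. The C2KO points far above the rest in Col4a1, Col4a2, Col5a1 and Col5a3 are fibres of pool 740, up to 106 CPM of Col4a1, whereas Col22a1 stays between 13.8 and 58.7 CPM in all 47 fibres.

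Ordered by their median level per kb of exon, Col22a1 was followed by Col4a2 with 1.05 CPM in C2KO and 1.21 CPM in WT. In C2KO the quartiles of Col4a2 overlapped those of the next gene, Col9a1 (0.64 CPM), while in WT they lay above those of the next, Col24a1 (0.52 CPM). From there down to Col5a3 in C2KO (0.18 CPM) and Col5a1 in WT (0.21 CPM), the quartiles of each gene overlapped those of its neighbour, so their order is not set by these data. Col24a1 was the sixth in C2KO and the third in WT, and Col19a1 the fifth in C2KO and the eighth in WT.

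The other side of the contrast was a group of 10 collagens, called peaked in the following, that reached 10 CPM in at least 1 fibre and stayed under 1 CPM in most fibres of both genotypes. They reached 1 CPM in 1 to 11 fibres of a genotype, so they are not the collagens of 1 or 2 fibres counted above. Of the 10, 7 reached 10 CPM in C2KO fibres alone, 2 in fibres of both genotypes and 1, Col20a1, in WT fibres alone. The choice therefore favours C2KO for most of them, and nothing is read from the direction of the group as a whole. They were the fibrillar Col1a1, Col1a2, Col3a1 and Col5a2, the beaded filament chains Col6a1 and Col6a2, Col8a1 of the short-chain type VIII, the fibril-associated Col14a1 and Col20a1, and Col18a1, the precursor of endostatin. Together they summed to 0.11 to 1889 CPM in C2KO fibres (median 1.54) and 0.39 to 101 CPM in WT fibres (median 3.29). They took 63.5% of all collagen counts in C2KO and 14.7% in WT, but within C2KO 70.5% in pool 740 and 20.4% in pool 2445, against 21.1%, 8.99% and 9.20% in WT pools 1, 2 and 3. Without fibres 740-5, 740-2 and 740-8 the share in C2KO was 22.5%.

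Col3a1, the chain of type III fibrils, had the highest CPM of any collagen in a single fibre. It had 0 to 1011 CPM in C2KO fibres with a median of 0, and 0 to 59.9 CPM in WT fibres with a median of 0.56. It reached 1 CPM in 7 of 20 C2KO and 10 of 27 WT fibres. Fibre 740-5 held 67.6% of the Col3a1 of C2KO fibres and fibre 35_17692 held 53.9% of that of WT fibres.

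The type I chains, which make up the thick fibrils of tendon and fascia, were high in the same fibre 740-5. Col1a2 had up to 346 CPM in C2KO fibres (median 0, 7 of 20 at 1 CPM or more) and up to 16.4 CPM in WT fibres (median 0.075, 6 of 27). Col1a1 had up to 165 CPM in C2KO fibres (median 0.05, 6 of 20) and up to 4.89 CPM in WT fibres (median 0.08, 3 of 27). Over the 20 C2KO fibres Col3a1 ranked with Col1a2 (rho 0.96) and Col1a1 (0.91), and over the 27 WT fibres with rho of 0.45 and 0.67. Many of these fibres are at or near 0, where ranks carry little.

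Type VI chains, which form beaded filaments around cells, were, for Col6a1 and Col6a2, also highest in fibres 740-5 (C2KO) and 35_17692 (WT). Col6a1 had up to 161 CPM in C2KO fibres (median 0, 7 of 20 at 1 CPM or more) and up to 8.08 CPM in WT fibres (median 0.32, 3 of 27). Col6a2 had up to 123 CPM in C2KO fibres (median 0, 6 of 20) and up to 6.82 CPM in WT fibres (median 0, 3 of 27). The third chain, Col6a3, reached 1 CPM in more fibres, with 0 to 34.8 CPM in C2KO fibres (median 1.25) and 0 to 7.16 CPM in WT fibres (median 0.97). Of the other type VI chains, Col6a6 reached 3.23 CPM, Col6a5 had 1 count in all and Col6a4 had none.

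Col14a1, which associates with type I fibrils, was found in few fibres. It had up to 17.3 CPM in C2KO fibres (4 of 20 at 1 CPM or more) and up to 1.11 CPM in WT fibres (1 of 27), with a median of 0 in both. Col5a2 was the broadest, with 0 to 46.2 CPM in C2KO fibres (median 0.86) and 0 to 3.81 CPM in WT fibres (median 0.60). Col8a1 had up to 10.2 CPM in C2KO fibres (3 of 20) and up to 1.43 CPM in WT fibres (1 of 27).

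These collagens came together in the same fibres. Of Col1a1, Col1a2, Col3a1, Col6a1, Col6a2 and Col14a1, 3 or more reached 1 CPM in 7 of 20 C2KO fibres and 3 of 27 WT fibres. None of the 6 did in 13 C2KO and 15 WT fibres, and 1 or 2 did in 0 C2KO and 9 WT fibres. The C2KO fibres were 740-2, 740-4, 740-5, 740-8, 740-12, 2445-1 and 2445-2, and the WT fibres were 35_17692, 55_17714 and 58_17716. By sequencing run, they were 5 of 16, 2 of 3 and 0 of 1 C2KO fibres in the 3 runs with C2KO fibres, and 2 of 10, 1 of 10 and 0 of 7 WT fibres in the runs of WT pools 1, 2 and 3. The runs with 0 are the same run. This set of 6 was put together after its values were seen, so the counts are a description.

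**Figure D4:**
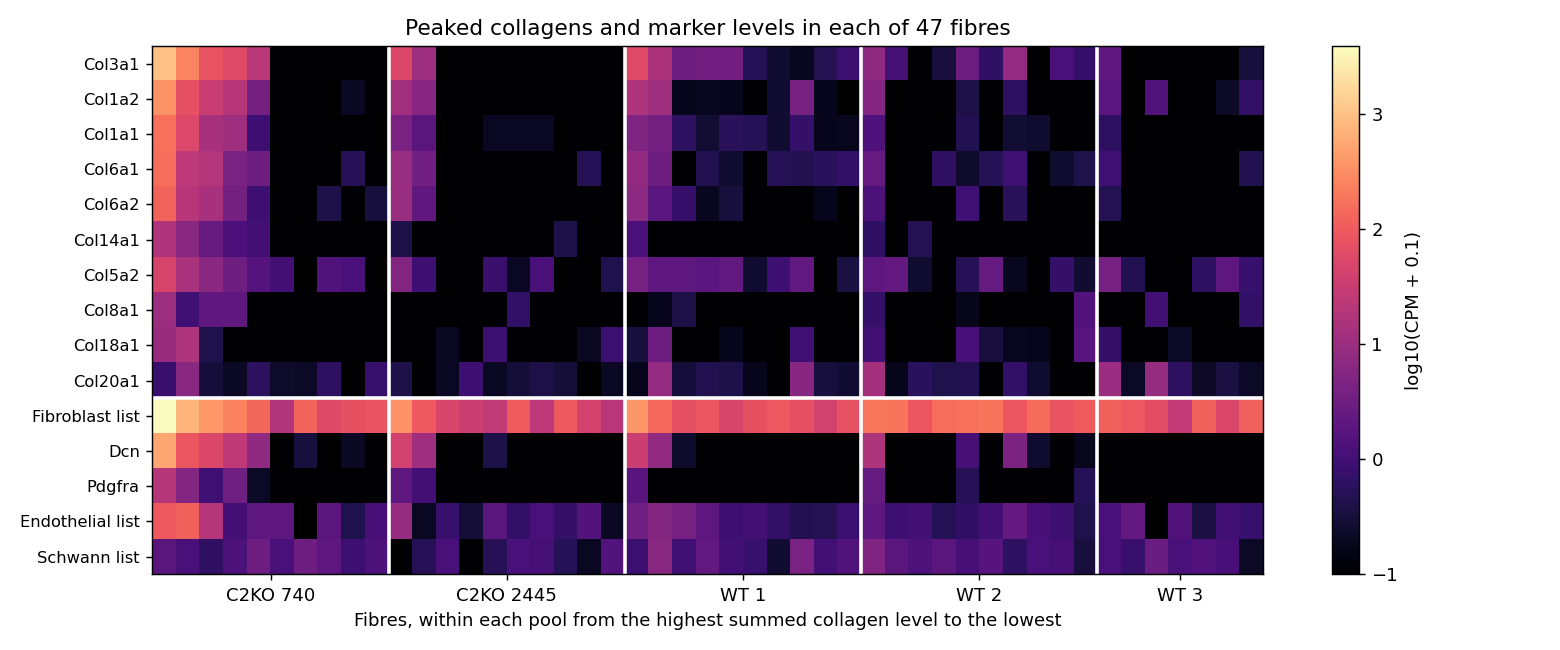
Levels of the 10 peaked collagens (upper rows) and of fibroblast, endothelial and Schwann cell markers (lower rows) in each fibre, as log10(CPM + 0.1); the pools stand side by side with C2KO on the left, fibres run from the highest to the lowest summed collagen level. The bright columns on the left of pool 740 are fibres 740-5, 740-2, 740-8 and 740-4, with 1011, 261, 83.3 and 57.9 CPM of Col3a1.

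Fibroblast markers stood in the same fibres. Dcn, the gene of the fibril-binding proteoglycan decorin and a fibroblast marker, reached 1 CPM in all 7 C2KO and all 3 WT fibres with 3 or more of these collagens, in 1 of the 9 WT fibres with 1 or 2, and in 0 of 13 C2KO and 0 of 15 WT fibres with none. It had 548 CPM in fibre 740-5, 84.1 CPM in 740-2 and 52.0 CPM in 740-8, against 33.4 CPM in WT fibre 35_17692. Pdgfra, a receptor that marks fibro-adipogenic cells, had counts in all 7 of these C2KO fibres and no other, and in 4 WT fibres, of which 2 were among the 3. The sum over the fibroblast list without Smoc2 was 34.0 to 3671 CPM in those 7 C2KO fibres and 35.8 to 291 CPM in those 3 WT fibres. It was 1.11 to 23.4 CPM in the 9 WT fibres with 1 or 2 of these collagens, and 0.096 to 4.47 CPM in the 13 C2KO fibres and 0.13 to 3.09 CPM in the 15 WT fibres with none. Smoc2 was set aside after its values were seen, because it lay at 15.8 to 218 CPM in C2KO fibres and 25.1 to 188 CPM in WT fibres, and made up most of the list in the fibres with none. The part of fibroblast RNA in the levels of these collagens was not tested.

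Over the whole list, 12 of 12 fibroblast markers were detected, and their sum was 17.6 to 3889 CPM in C2KO fibres and 26.3 to 386 CPM in WT fibres. The tendon list summed to 5.37 to 18.1 CPM in C2KO fibres and 6.03 to 18.7 CPM in WT fibres, 83.1% of it Scx, and 2 of its 7 genes had no count. The endothelial list, all 12 genes detected, summed to 0 to 120 CPM in C2KO fibres and 0 to 5.08 CPM in WT fibres. The immune list summed to 3.42 to 26.02 CPM in C2KO fibres and 1.91 to 18.8 CPM in WT fibres, mostly Mrc1, and 4 of 5 erythrocyte genes were at 0 in every fibre.

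Col18a1, a basement membrane collagen known from vessels, was seen in fewer fibres. It had 15.97 CPM in 740-2 and 9.15 CPM in 740-5, the 2 fibres with the highest endothelial sums, and 0.31 CPM in 740-8. The other fibres at or above 1 CPM were all WT, up to 2.92 CPM in 55_17714. Its median was 0 in both genotypes, and pool values were 2.53 and 0.18 CPM in C2KO, against 0.41, 0.40 and 0.105 CPM in WT.

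Col20a1, a fibril-associated collagen, was present or nearly absent. It had 6.11 CPM in 1 C2KO fibre, 740-2, and at most 0.81 CPM in the other C2KO fibres. It had 6.04 to 12.8 CPM in 5 WT fibres and stayed under 1 CPM in the other 22. The WT fibres were 58_17716, 63, 50, 55_17714 and 42_17695, so they came from all 3 WT pools. Fibres 740-2, 55_17714 and 58_17716 were also among those with 3 or more of the 6 collagens named above, and the others were not. Col28a1, of the network group, had 1.03 to 1.59 CPM in 3 of these WT fibres, 0.86 CPM in the fourth, 0.64 CPM in 740-2 and no count in fibre 63, and outside these 6 fibres it had 0.085 CPM in WT fibre 59_17717 and no count elsewhere.

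Col28a1 is known from the Schwann cells of peripheral nerve, and 2 markers of these cells had counts only in the 6 fibres. Sox10, the transcription factor of the Schwann lineage, and Cdh19 each had counts in 4 of the 6 fibres and in none of the other 41, at most 0.77 and 1.06 CPM. Other genes of the Schwann list did not follow them: Mbp had counts in 4 of the 6 but also in 22 of the 41, Ngfr in 0 of the 6 and 11 of the 41, and Gfra3 in no fibre. These fibres and markers were set together after their values were seen, and the part of Schwann cells was not tested. The pools had 0.88 and 0.22 CPM of Col20a1 in C2KO, against 1.56, 1.46 and 2.76 CPM in WT, with a log2 fold change of -1.81 (SE 0.64, adjusted p = 0.46).

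The remaining 24 collagens lay lower or closer to the line. Of these, 14 reached 1 CPM in some fibre, 7 had counts but stayed under it everywhere and 3 (Col6a4, Col11a1 and Col25a1) had no count, which, at a limit of 3 counts, allows up to 0.39 CPM in the shallowest and 0.21 CPM in the deepest fibre. Col6a3 reached the highest CPM of any of them, 34.8 CPM in C2KO fibre 740-5. Col12a1, a fibril-associated collagen, reached 1 CPM in 6 of 20 C2KO and 4 of 27 WT fibres, at most 6.18 CPM in C2KO fibre 2445-12 and 6.74 CPM in WT fibre 35_17692. Across fibres it ranked with Sdc4, a syndecan on the list of satellite cell markers, with rho 0.63 over 20 C2KO and 0.69 over 27 WT fibres. With the fibroblast list the rho was 0.08 in both, and without Smoc2 it was 0.22 in C2KO and 0.34 in WT. Sdc4 made up 98.0% of the satellite list, so the list says little about these cells here.

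Some narrow collagens were met in 1 genotype at this level. Col13a1 reached 1 CPM in 0 of 20 C2KO and 4 of 27 WT fibres and Col28a1 in 0 and 3, whereas Col15a1 and Col6a6 reached it in 2 of 20 C2KO and 0 of 27 WT fibres. Col16a1 did so in 4 of 20 C2KO and 2 of 27 WT fibres, up to 8.85 CPM in 740-5 and 2.83 CPM in WT fibre 50. Col2a1, the main collagen of cartilage, had at most 0.10 CPM in C2KO fibres and 1.23 CPM in WT fibre 63. Col17a1, Col26a1 and Col27a1 each reached 1 CPM in 1 of 20 C2KO fibres and in 0 of 27 WT fibres. Counts of Col9a3 are uncertain, since its exons share 229 bases with Tcfl5 on the opposite strand and the sources used here do not say whether the kit kept strand.

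No collagen was called between the genotypes. Of 44 collagens 30 entered the test, and 0 of 30 passed an adjusted p of 0.05 with a fold over 1.5, against 0.0466% of 12863 genes (3 higher and 3 lower in C2KO, 0.0233% in each direction). At an unadjusted p under 0.05 there were 13 collagens with edgeR, 17 with DESeq2 (of 41 tested) and 5 with limma/voom on the pools, and none of the 3 called a collagen (DESeq2 called 1.11% of all genes higher and 0.445% lower). The edgeR ones were 10 higher in C2KO (33.3% of the 30, against 6.2% of all genes) and 3 lower (10.0%, against 4.13%). Among the higher ones were the peaked Col1a1, Col1a2, Col3a1, Col6a1, Col6a2 and Col14a1, high in the same fibres, so their share is not read as a result. Without fibres 740-5, 740-2 and 740-8, edgeR gave an unadjusted p under 0.05 for 5 of 31 collagens tested, in either direction. The median log2 fold change was 1.35 over the 30 collagens, and 22 of 30 were positive, beside a median of -0.00038 over all genes. Over the 10 fibre-wide collagens the median was 0.35, and without fibres 740-5, 740-2 and 740-8 it was -0.18. No median is given for the peaked collagens, since their choice sets most of their directions.

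By pool, 6 of 30 collagens were higher in each C2KO pool than in any WT pool (20.0%, against 13.1% of all genes), namely Col4a1, Col6a2, Col15a1, Col19a1, Col26a1 and Col27a1. Another 4 were lower (13.3%, against 14.5%), namely Col11a2, Col20a1, Col24a1 and Col28a1. The lower share is near that of all genes. Col27a1 passed the filter through its C2KO pools alone (0.156 and 0.157 CPM, against 0.063, 0.098 and 0 CPM in WT). Col28a1 passed it through its WT pools alone (0.205, 0.166 and 0.140 CPM, against 0.063 and 0 CPM in C2KO). The direction of these 2 genes is therefore tied to how they entered the test and is not read as a result. Leaving out the 3 high fibres turned the balance of the 31 collagens then tested to 15 positive and 16 negative, with a median of -0.05, and 0 were called. Those fibres were picked by their collagen level from C2KO alone, so this turn is not read as a result.

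Among the peaked collagens the C2KO pools differed, and pool 740 held the higher values of the pair. Most of these collagens entered the group by reaching 10 CPM in C2KO fibres alone, and their highest C2KO fibre lies in pool 740. The higher values of pool 740 are tied to that choice and are not read as a result. Col1a1 had 24.99 and 0.67 CPM in C2KO pools 740 and 2445, against 1.13, 0.20 and 0.07 CPM in the WT pools (log2 fold change 4.69, SE 1.51, adjusted p = 0.43). Col3a1 had 146 and 6.51 CPM, against 9.12, 2.14 and 0.31 CPM, with 4.27 (SE 1.47, adjusted p = 0.44). Col1a2 had 48.5 and 1.87 CPM, against 3.27, 0.62 and 0.54 CPM, with 4.05 (SE 1.32, adjusted p = 0.43). In these 3 genes C2KO pool 2445 lay inside the range of the WT pools.

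Col6a2 was the member of this group whose pools did not overlap upwards, by a narrow margin. It had 16.6 and 1.21 CPM in the C2KO pools, against 1.02, 0.25 and 0.05 CPM in the WT pools (log2 fold change 4.26, SE 1.27, adjusted p = 0.42). Col6a1 had 21.5 and 1.37 CPM, against 1.39, 0.475 and 0.174 CPM, with 4.02 (SE 1.18, adjusted p = 0.41). Col14a1 had 2.84 and 0.063 CPM, against 0.12, 0.090 and 0 CPM, with 4.22 (SE 1.49, adjusted p = 0.45). Col5a2, Col8a1 and Col18a1 had 1.91, 2.44 and 2.11, with adjusted p of 0.49, 0.54 and 0.53, and each turned negative without pool 740 (-0.40, -1.22 and -0.81).

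Taking away fibres changed these values. Without fibre 740-5, Col1a1, Col3a1 and Col6a2 had log2 fold changes of 3.31, 2.77 and 2.61, and without 740-5, 740-2 and 740-8 they had 1.33, 1.20 and 1.11, all with adjusted p of 0.47 or more. Without the 3 fibres Col1a2 had 0.86, Col6a1 0.85, Col14a1 1.20 and Col8a1 0.32, while Col5a2 had -0.17 and Col18a1 -1.69. With C2KO pool 740 alone set against WT, 8 collagens were called higher, namely Col1a1, Col1a2, Col4a1, Col5a1, Col5a2, Col6a1, Col6a2 and Col14a1, and 0 lower, beside 2.33% and 0.293% of all genes, while with pool 2445 alone 0 were called. In either fit C2KO is 1 pool whose spread is taken from the WT pools, as if it varied like them, and pool 740 holds the 3 high fibres, so these calls cannot show a difference between the genotypes. The fibroblast list, Smoc2 included, ranked with the 6 collagens named above at rho 0.73 to 0.83 over the 20 C2KO fibres and 0.11 to 0.35 over the 27 WT fibres, and without Smoc2 at 0.69 to 0.85 and 0.22 to 0.67. The list had a median log2 fold change of 3.72 over 12 tested members, with 0 called, and of 1.03 over the 11 tested without the 3 high fibres.

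**Figure D5:**
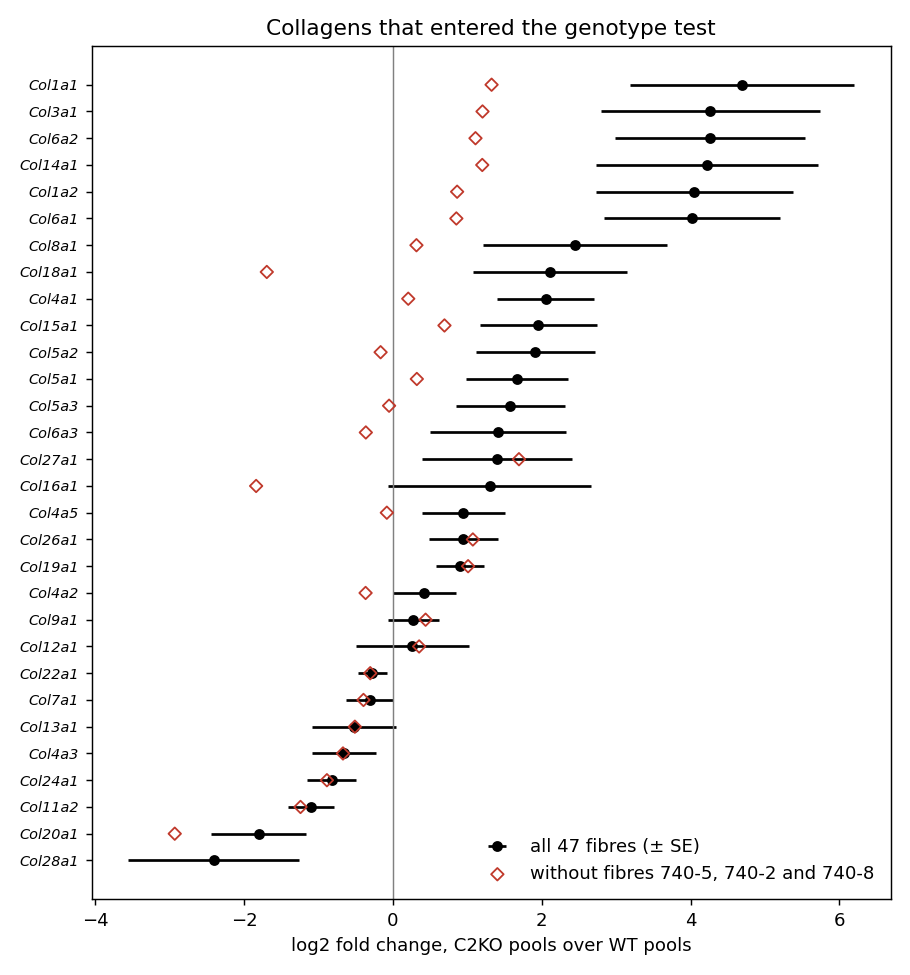
Log2 fold change of C2KO over WT pools for the 30 collagens tested (points, with SE), with the value without fibres 740-5, 740-2 and 740-8 as open diamonds (none for Col28a1, whose C2KO fibres are then all at 0). Col1a1 moves to 1.33 without them, whereas Col19a1, Col24a1 and Col11a2 are at 1.01, -0.89 and -1.24.

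Within WT, some of these genes differed between fibres with Xist counts and fibres with Y-linked counts. In WT fibres with Xist counts alone, Col1a1 reached 1 CPM in 3 of 11 fibres, Col6a1 in 3 and Col6a2 in 3, whereas in WT fibres with Y-linked counts alone they did so in 0 of 15. Col3a1 did so in 6 of 11 and 4 of 15. For Col1a1, Col6a1 and Col6a2 alike, the WT fibres at 1 CPM were 2 of pool 1 and 1 of pool 2. The WT fibres with 3 or more of the 6 collagens had the same split, so these values may be 1 observation on 3 fibres. In C2KO the order was the other way, with Col1a1 at 24.99 CPM in pool 740 (Y-linked counts) and 0.67 CPM in pool 2445 (Xist counts). Within fibres with Y-linked counts alone, 9 collagens were called higher in C2KO pool 740 and 0 lower, beside 1.99% and 0.158% of all genes. This split was chosen after the data were seen. C2KO is then again pool 740 alone, with its 3 high fibres and a spread taken from the WT pools, so these calls cannot show a difference between the genotypes. The part of sex in these values was not tested.

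The machinery around collagens gave no called gene either. Of 30 genes of collagen synthesis and processing 25 were tested, with 22 positive, 3 negative and 0 called, and a median log2 fold change of 0.19 (0.033 over 24 genes, with 14 positive and 10 negative, without the 3 high fibres). The members with the highest CPM were P4hb, a subunit of the prolyl hydroxylase that stabilises the helix (197 CPM in C2KO and 181 CPM in WT pools on average), Mia3, which carries collagen out of the endoplasmic reticulum (102 and 95.4 CPM), and P4ha1, the catalytic subunit (69.6 and 66.1 CPM).

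The basement membrane partners, with 11 of 11 tested and 0 called, had a median of 0.24, and of -0.12 without the 3 high fibres. Lamb2, a laminin chain of the muscle basement membrane, averaged 179 CPM in C2KO and 231 CPM in WT pools (log2 fold change -0.37, SE 0.12, adjusted p = 0.42), and Lamc1 35.3 and 33.3 CPM. Sparc, a collagen-binding matrix protein, had 106.2 and 23.6 CPM in C2KO pools 740 and 2445, against 26.2, 39.07 and 27.04 CPM in the WT pools, so that pool 2445 lay below every WT pool, and its log2 fold change was 1.08 (SE 0.56, adjusted p = 0.55) and 0.05 without the 3 high fibres. Of 9 receptors 6 were tested and 0 called, with a median of 0.52, and of -0.045 without the 3 high fibres. Dag1, the dystroglycan that binds laminin, averaged 268 CPM in C2KO and 301 CPM in WT pools, Itgb1, the beta subunit of the collagen-binding integrins, 241 and 203 CPM, and Ddr1 26.2 and 25.3 CPM.

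Of 10 genes of collagen breakdown and its inhibitors 7 were tested, all 7 positive and 0 called, with a median of 1.81, and of 0.66 with 6 positive without the 3 high fibres. Timp2, an inhibitor of the metalloproteinases, had 100.1 and 95.3 CPM in the C2KO pools, against 63.02, 54.6 and 48.7 CPM in the WT pools (log2 fold change 0.82, SE 0.13, adjusted p = 0.21; 0.70 without the 3 high fibres). Mmp2, which degrades denatured collagen and type IV collagen, had 16.97 and 1.42 CPM in the C2KO pools, against 1.20, 0.44 and 0.17 CPM in the WT pools (3.87, SE 1.09, adjusted p = 0.41; 1.02 without the 3 high fibres). Timp3, another inhibitor, had 31.5 and 4.59 CPM in the C2KO pools, against 6.70, 7.93 and 8.39 CPM in the WT pools, with pool 2445 again the lowest. Of the 7 C2KO fibres rich in fibroblast markers named above, pool 740 holds 5, among them the 3 high fibres, and pool 2445 holds 2. WT holds 3 such fibres, and the part of all these fibres in these values was not tested. The lists were described by their counts and medians and carry no test of their own.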

How the data were processed

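Raw gene counts, 1 file per fibre, were deposited by the authors for 24421 genes. Per the file headers, read pairs were counted over exons with featureCounts 1.5.2 (mm10, strand option 2, multi-mapping reads left out), and the submitters' processing notes also list FastQC 0.11.2, CASAVA 1.4 and HISAT2 2.0.5. The sources used here do not state if the kit preserved strand. Multi-mapping reads being left out, reads shared by near-identical copies are not in the counts.

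Fibre values are CPM of all gene counts (7648762 to 14606631 per fibre) and pool values are CPM of summed counts scaled by TMM. C2KO and WT pools were compared with edgeR 4.0.16 in R 4.3.3 (quasi-likelihood, filterByExpr, Benjamini-Hochberg over 12863 genes), with calls where the adjusted p was below 0.05 and the fold above 1.5. No label says that a pool is a mouse, so p-values measure the spread between pools only, and mice may be shared by pools. That spread is between runs in WT and between name prefixes in C2KO, and genotype and run cannot be told apart. The script was tested on simulated data. DESeq2 1.42.0, limma 3.58.1, other scalings, filters, levels and left-out pools or fibres were the alternatives. Intervals are exact (Clopper-Pearson) at a confidence level of 0.95. Named were the collagens in most fibres of either genotype, and those at 10 CPM or more in some fibre but under 1 CPM in most fibres of both genotypes. The collagens and the gene lists were chosen with earlier results of these data known. Promoter windows are from RefSeq. Some markers of the Schwann list are not reported here.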

Additional observations from a re-analysis of the deposited data

Results flagged for a closer look

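The summed collagen level of 1 fibre stood far from the rest of its pool in 4 of 5 pools. The rule was Dixon's test at the 95% level, which flags about 1 in 20 groups of normally distributed values. The summed CPM were not transformed and are skewed upwards, so that rate need not hold here. Fibre 740-5 had 2289.7 CPM, against 661.8 CPM in the next fibre of C2KO pool 740. Fibre 2445-1 had 168.9 CPM, against 78.9 CPM in the next of C2KO pool 2445. In WT pool 2, fibre 58_17716 had 155.5 CPM, against 91.7 CPM in the next, and in WT pool 3 fibre 63 had 87.5 CPM, against 59.3 CPM. In WT pool 1 the highest fibre, 35_17692, had 187.8 CPM, against 130.5 CPM in the next, and was within the limit.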

How the results depend on the processing

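The count of genes called, 6 over all genes, was 210 with DESeq2, 11 without a filter on low counts, 474 with limma/voom over 47 fibres, 35 over fibres with the run as covariate, 10 without fibre 740-5, 286 in fibres with Y-linked counts alone and 1 to 358 with 1 pool left out. The count of collagens called, 0, was 3 with limma/voom over fibres, 9 in fibres with Y-linked counts alone, and 0 to 8 with 1 pool left out (8 without C2KO pool 2445). At 0.5 CPM, 4 collagens were confined to 1 or 2 C2KO fibres, against 7 at 1 CPM. With 1 pool left out, log2 fold changes that changed sign ran from -0.58 to 1.01 for Col4a2, -0.091 to 2.33 for Col5a3, -0.85 to 0.082 for Col7a1, -0.23 to 0.65 for Col9a1, -0.40 to 2.76 for Col5a2, -1.22 to 3.41 for Col8a1, -0.26 to 5.15 for Col14a1 and -0.81 to 2.99 for Col18a1. All but that of Col7a1, positive without pool 2445, turned negative without pool 740. With the run as covariate, a fit that rests on 1 C2KO and 7 WT fibres of run 0092, the sign turned for Col4a2 (-0.65), Col22a1 (0.59), Col24a1 (0.21), Col1a1 (-2.80), Col1a2 (-5.57), Col3a1 (-4.80), Col5a2 (-0.12), Col6a1 (-3.99), Col6a2 (-2.46), Col8a1 (-4.25) and Col18a1 (-3.31). Without fibres 740-5, 740-2 and 740-8 it turned for Col4a2 (-0.37), Col5a3 (-0.051), Col5a2 (-0.17) and Col18a1 (-1.69), and with limma/voom over fibres for Col4a2 (-0.045) and Col5a3 (-0.21). The cause was not tested. The settings on Y-linked fibres and on left-out fibres were chosen after seeing the data. No paired analysis was possible because fibre numbers mark single fibres and pools share no number between genotypes. At 1 CPM a value rests on 7.65 to 14.6 counts, so counting error is large for collagens near that level.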

Other observations

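Among WT fibres, Col7a1 had a median of 4.46 CPM in the 15 fibres with Y-linked counts alone and 2.47 CPM in the 11 with Xist counts alone, while Col22a1 had 22.95 and 31.5 CPM. The number of collagens at or above 1 CPM per fibre ran from 6 to 24 in C2KO fibres (median 10) and from 8 to 21 in WT fibres (median 11). Col1a1 took 33.7% of the counts of Col1a1 and Col1a2 in C2KO (exact interval 32.6 to 34.8%) and 24.8% in WT (21.6 to 28.2%). By pool the share was 34.0% in C2KO pool 740 and 26.3% in pool 2445, against 25.8%, 24.1% and 11.4% in WT pools 1, 2 and 3. Pool 740 gave 7050 of the 7293 C2KO counts, and the intervals cover counting error only. These are values with no test.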
